A study of Mus musculus with 30 samples.

Results

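The 10 genes described here encode CC chemokine ligands: Ccl2, Ccl3, Ccl4, Ccl5, Ccl6, Ccl7, Ccl8, Ccl20, Ccl25 and Ccl28. They were chosen by name from the 46078 genes of the counts table, and all 10 passed the low-count filter that left 16261 genes for testing. RNA was sequenced from the scraped epithelial layer of the colon of wild-type C57BL/6J mice, 5 mice and 5 libraries in each of 6 groups. Vehicle-treated females and males received saline i.p. and were killed at 9 weeks. Treated females and males received the carcinogen azoxymethane (AOM, 10 mg/kg, i.p.) and then 3 cycles of the colon irritant dextran sulfate sodium (DSS, 2.5%) in their drinking water, and were killed at 9 or at 15 weeks. All mice were young at the start and carried no genetic change. There was no vehicle group of 15 weeks, and treatment and time cannot be told apart there.

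CC chemokines are small secreted proteins that guide leukocytes to a tissue through G protein-coupled receptors on the leukocyte surface. Ccl3, Ccl4 and Ccl5 attract monocytes and effector T cells. Ccl2 and Ccl7 recruit monocytes through Ccr2, and Ccl8 is their neighbour in the genome. Ccl20 draws Ccr6-bearing lymphocytes and dendritic cells to mucosal epithelium. Ccl25 and Ccl28, which bind Ccr9 and Ccr10, are known as homing signals for gut lymphocytes and antibody-secreting cells, and Ccl6 is a rodent ligand of Ccr1.

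The family is named for 2 cysteines that stand next to each other near the start of the mature protein, and each of the 10 coding sequences held exactly 1 pair of adjacent cysteine codons. The 30 bases around that pair are shown for Ccl4, Ccl5 and Ccl8, which were called higher at 9 weeks, and for Ccl6, Ccl25 and Ccl28, the 3 with the smallest standard errors, with the cysteine codons in capitals. They were read from the principal transcripts of GENCODE M21, on the coding strand.
Ccl4: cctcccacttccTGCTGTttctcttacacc
Ccl5: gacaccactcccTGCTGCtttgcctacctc
Ccl8: gctccagtcaccTGCTGCtttcatgtacta
Ccl6: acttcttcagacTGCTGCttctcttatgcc
Ccl25: gcctttgaagacTGCTGCctgggttaccag
Ccl28: atggcctccagcTGTTGCactgaggtgtct
The pair lay at codons 34 and 35 in Ccl4 and at codons 30 and 31 in Ccl25 and Ccl28, whereas in Ccl6 it lay further in, at codons 50 and 51. The coding sequence of Ccl4 was 279 bases long with the stop codon, against 435 bases for Ccl25. The number of cysteine codons ran from 4 in Ccl2 to 7 in Ccl28.

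Of the members 7 lie on chromosome 11 (GRCm38), in a near group of Ccl2 (82035571 to 82037453), Ccl7 (82045712 to 82047525) and Ccl8 (82115185 to 82116799), and a far group of Ccl5 (83525778 to 83530518), Ccl6 (83587882 to 83593087), Ccl3 (83647844 to 83649355) and Ccl4 (83662584 to 83664683). The gap between Ccl8 and Ccl5 was 1409 kb, and Ccl3 and Ccl4 were 13.2 kb apart on opposite strands. Ccl20 lies on chromosome 1 (83116766 to 83119167), Ccl25 on chromosome 8 (4325210 to 4360020) and Ccl28 on chromosome 13 (119623819 to 119654354). Genes on the other strand overlap Ccl2 (Gm17268), Ccl6 (E230016K23Rik) and Ccl25 (Elavl1), and since no source used here says whether the counting used strand, their reads may not be separated from those of the ligands.

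Counts on genes ran from 9265804 to 30806392 per library, the lowest in female vehicle replicate 5. Epithelial markers, 10 genes such as Epcam and Krt20, were present in every library and summed to between 12734 and 46292 CPM (counts scaled to a fixed library size after TMM). Male vehicle replicate 1 stood apart, with 5809 CPM over 8 smooth muscle genes against 39.6 to 280 CPM in the other 29 libraries. Results were also computed without replicate 1 of both vehicle groups. The female one was not high in smooth muscle genes, at 92.3 CPM, the median of its group. It was the highest female vehicle library in mesenchyme markers, at 175 CPM, and in macrophage and monocyte markers, at 156 CPM. In whole tissue, fewer cells of a type and less RNA per cell cannot be told apart.

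In the scrape the family was mostly Ccl6 and Ccl28. On the TPM scale, which corrects for gene length, these 2 genes made up between 69.9% and 96.3% of the summed level of the 10 members in the 30 libraries, with a median of 91.4%. Ccl6 alone made up 43.2% to 89.0%. Ccl3, Ccl4 and Ccl5 together made up 0.327% to 1.94% in the 10 vehicle libraries and 1.94% to 23.1% in the 10 libraries of 9 weeks. The ligands that changed were thus minor members of the family in most libraries, and the abundant members are described last.

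To find how the ligands respond to AOM/DSS at a more acute stage of colitis, the libraries of 9 weeks were compared with vehicle, averaging the sexes. Of the 10 members 4 were higher, Ccl3, Ccl4, Ccl5 and Ccl8, and none was lower, against 5.65% of all tested genes called higher and 2.87% called lower. A gene was called when its adjusted p (edgeR's quasi-likelihood test, Benjamini-Hochberg over all tested genes) was below 0.05, the log2 fold change exceeded 0.4 in size and 1 group of the comparison had a mean FPKM of 1 or more. Ccl2 and Ccl7 passed the first 2 conditions but not the third. At 15 weeks against vehicle 1 of 10 members was higher, Ccl8, against 3.54% of tested genes. Between 15 and 9 weeks 3 of 10 members were lower, Ccl3, Ccl4 and Ccl5, against 2% of tested genes.

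**Figure D1:**
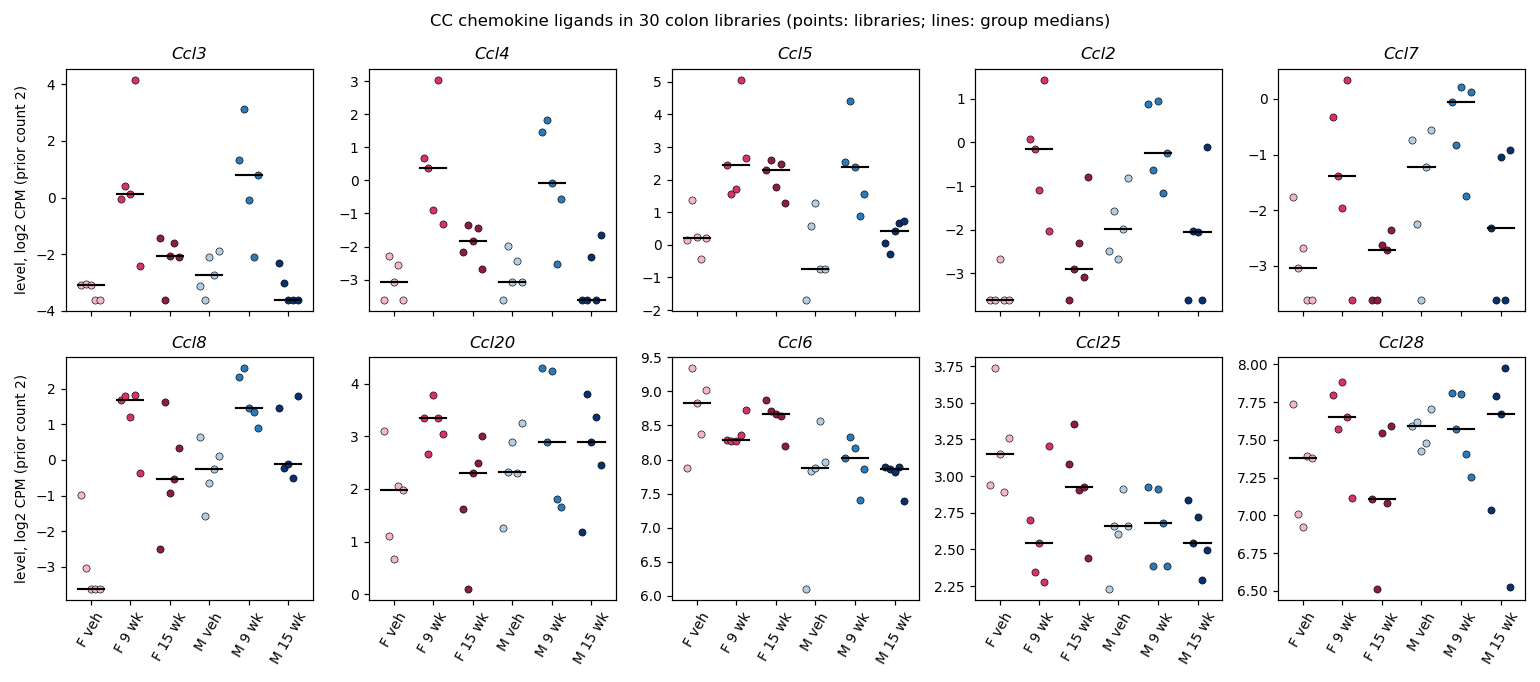
Level of each ligand in the 30 libraries, in log2 CPM with a prior count of 2 on the vertical axis, for females (F) and males (M) of the vehicle, 9-week and 15-week groups. Each point is 1 library and each line a group median, and the scale differs between panels. Ccl3, Ccl4, Ccl5 and Ccl8 stood highest at 9 weeks, while for Ccl6, Ccl25 and Ccl28 the 9-week libraries overlapped vehicle in both sexes.

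Ccl3 (macrophage inflammatory protein 1 alpha) showed the largest fitted difference of the 10 members at 9 weeks. Its counts in the 5 female vehicle libraries were 1, 1, 1, 0 and 0, and in the male ones 1, 0, 4, 2 and 5. At 9 weeks they were 21, 29, 29, 418 and 2 in females and 69, 197, 25, 5 and 47 in males. Every female library of 9 weeks lay above every female vehicle library, by CPM, but female replicate 5, with 2 counts, barely so, and replicate 4 alone held most of the group's reads. In males, replicate 4 of 9 weeks fell within the vehicle range. The log2 fold change was 5.97 ± 0.87 (SE; edgeR adjusted p = 1.91e-05), and 4.80 without female replicate 4 of 9 weeks. Because the female vehicle group held only 3 counts in all, the fitted fold depends on the prior count. The ratio of summed counts, scaled for library size, was 165.6 in females (95% exact interval 56.3 to 806) and 27.3 in males (15.4 to 53.4). These intervals cover the counting error of independent reads only, not the spread between mice.

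Ccl4 (macrophage inflammatory protein 1 beta), the closest neighbour of Ccl3, had counts of 0, 3, 1, 2 and 0 in female vehicle libraries and 0, 4, 1, 3 and 1 in male ones. At 9 weeks the counts were 36, 28, 13, 192 and 6 in females and 75, 79, 25, 3 and 17 in males. Female replicate 4 was again the highest library, and male replicate 4 the only one of 9 weeks that overlapped vehicle within its sex. Ccl4 rose by 4.86 ± 0.74 on the log2 scale (edgeR adjusted p = 3.7e-05), and by 4.16 without that female library. With the deposited TPM values and limma the differences of Ccl3 and Ccl4 were 3.42 and 3.34 on the log2(TPM + 0.1) scale, which understates changes from low levels.

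Ccl5 (RANTES), which T cells and natural killer cells make in quantity, was measurable in every library. Vehicle libraries ran from 0.228 to 2.51 CPM with a median of 1.04, and libraries of 9 weeks from 1.75 to 33.4 CPM with a median of 5.26. Female replicate 4 (33.4 CPM) and male replicate 2 (21.2 CPM) of 9 weeks stood above the other 8, which did not exceed 6.24 CPM. The groups did not overlap in females, whereas in males replicate 4 of 9 weeks lay below the highest vehicle library. Ccl5 rose by 2.93 ± 0.49 (log2; edgeR adjusted p = 0.000131), and by 2.32 without female replicate 4 of 9 weeks.

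The 3 genes did not keep this level to 15 weeks. Ccl3 had 6, 0, 4, 7 and 4 counts in females and 2, 1, 0, 0 and 0 in males, back in the range of vehicle in males. Ccl4 had 3, 6, 5, 8 and 2 counts in females and 0, 0, 3, 0 and 7 in males. Ccl5 ran from 2.35 to 5.93 CPM in females, where only the lowest library fell inside the vehicle range, and from 0.734 to 1.58 CPM in males, where all 5 did.

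From 9 to 15 weeks Ccl3 fell by 5.46 ± 0.84 (log2; edgeR adjusted p = 0.00236), Ccl4 fell by 3.80 ± 0.68 (adjusted p = 0.00586) and Ccl5 fell by 1.91 ± 0.47 (adjusted p = 0.025). Against vehicle at 15 weeks the log2 differences were 0.51 ± 1.23 for Ccl3 (edgeR adjusted p = 0.801), 1.06 ± 0.83 for Ccl4 (0.375) and 1.02 ± 0.48 for Ccl5 (0.135), and none was called. These misses do not show that the levels were equal. The falls from 9 to 15 weeks were -4.29 for Ccl3 and -3.10 for Ccl4 without female replicate 4 of 9 weeks, and -3.24 and -2.84 with TPM and limma. The fall of Ccl5 ran from -2.04 to -1.30 in 30 fits without 1 library and was called in 27 of them. Without female replicate 4 of 9 weeks the log2 difference was -1.30 with an adjusted p of 0.0813, without male replicate 2 of 9 weeks it was -1.45 with 0.0674, and without female replicate 1 of 15 weeks it was -1.91 with 0.0506.

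**Figure D2:**
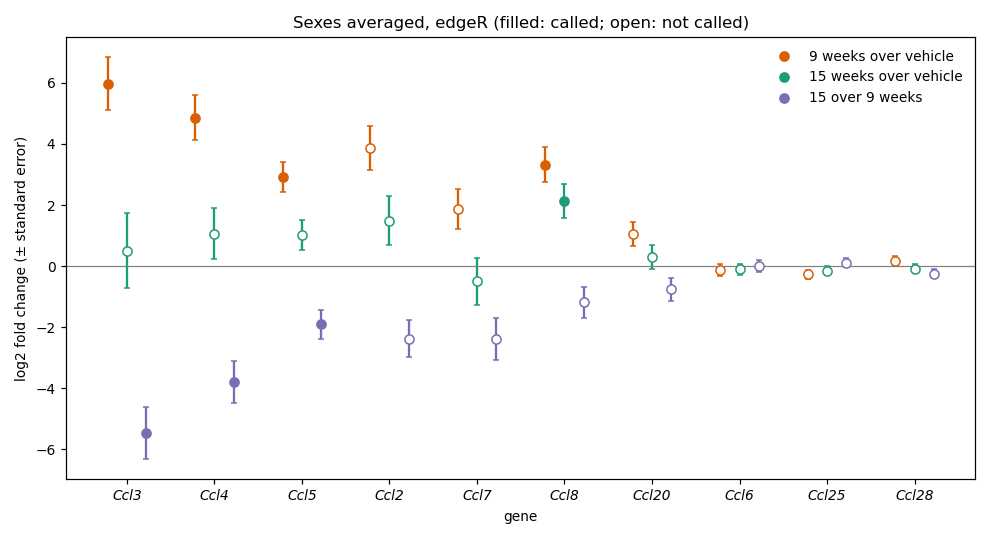
Log2 fold change of each ligand with the sexes averaged, from edgeR, for 9 weeks over vehicle, 15 weeks over vehicle and 15 over 9 weeks. Bars are standard errors, filled points were called and open points were not. Ccl3, Ccl4 and Ccl5 were called higher at 9 weeks and lower from 9 to 15 weeks, and Ccl8 was called higher at both times.

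Ccl8 (monocyte chemotactic protein 2), the neighbour of Ccl2 and Ccl7 on chromosome 11, was the only member called at both times. Female vehicle libraries held 12, 1, 0, 0 and 0 counts and male vehicle libraries 46, 6, 15, 22 and 27. At 9 weeks the counts were 75, 79, 63, 81 and 13 in females and 141, 136, 77, 80 and 51 in males. All libraries of 9 weeks lay above all vehicle libraries of the same sex, although female replicate 5, at 0.699 CPM, stood far below its group median of 3.17 CPM.

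Ccl8 at 15 weeks had 2, 58, 11, 17 and 31 counts in females and 45, 19, 21, 9 and 99 in males, and both groups overlapped vehicle. The log2 fold change over vehicle was 3.31 ± 0.57 at 9 weeks (edgeR adjusted p = 0.000175) and 2.13 ± 0.57 at 15 weeks (adjusted p = 0.0135). Between 15 and 9 weeks the difference was -1.19 ± 0.50 and was not called (adjusted p = 0.149). Without replicate 1 of both vehicle groups, which held most of the vehicle reads in females, the difference was 4.85 at 9 weeks and 3.66 at 15 weeks, and without the female one alone 4.68 and 3.49. The female vehicle libraries left in these fits held 1, 0, 0 and 0 counts, so the larger values depend on the prior count. With the smooth muscle score as a covariate it was 2.79 at 15 weeks. With the deposited TPM values and limma the 15-week difference was 1.25 on the log2(TPM + 0.1) scale and was not called (adjusted p = 0.133).

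Ccl2 (monocyte chemoattractant protein 1) was scarce. Female vehicle libraries held 0, 0, 2, 0 and 0 counts and male vehicle libraries 3, 6, 2, 5 and 13. At 9 weeks there were 23, 19, 11, 62 and 3 counts in females and 50, 13, 53, 12 and 22 in males. The female groups did not overlap, and in males only replicate 4, at 0.368 CPM, lay below the highest vehicle library, at 0.485 CPM.

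The log2 difference of Ccl2 at 9 weeks was 3.87 ± 0.73 (edgeR adjusted p = 0.000466), and it was not called because the mean FPKM was 0.860 in females and 0.901 in males. The ratio of summed counts, scaled for library size, was 58.7 in females (95% exact interval 15.9 to 491, on 2 vehicle counts) and 4.95 in males (3.31 to 7.64). At 15 weeks the counts were 0, 1, 3, 1 and 13 in females and 0, 4, 4, 0 and 25 in males, so that replicate 5 held most reads of each group. Between 15 and 9 weeks the difference was -2.38 ± 0.62 (adjusted p = 0.0303), again under the FPKM minimum.

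Ccl7 (monocyte chemotactic protein 3) was scarce as well. It had 6, 1, 2, 0 and 0 counts in female and 16, 3, 0, 10 and 16 in male vehicle libraries. At 9 weeks it had 17, 7, 5, 28 and 0 counts in females and 25, 11, 31, 7 and 29 in males, and the groups overlapped in both sexes. The log2 difference was 1.88 ± 0.66 at 9 weeks (edgeR adjusted p = 0.0486) and -2.38 ± 0.68 between 15 and 9 weeks (adjusted p = 0.0424). Its highest group mean was 0.7104 FPKM, so neither was called. At 15 weeks against vehicle the difference was -0.50 ± 0.76 (adjusted p = 0.671).

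Neighbours on chromosome 11 differed in their values. Ccl6 lies between Ccl5 and Ccl3, which both rose at 9 weeks, and its own log2 difference was -0.13 ± 0.19. In the near group Ccl2, Ccl7 and Ccl8 differed by 3.87, 1.88 and 3.31.

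**Figure D3:**
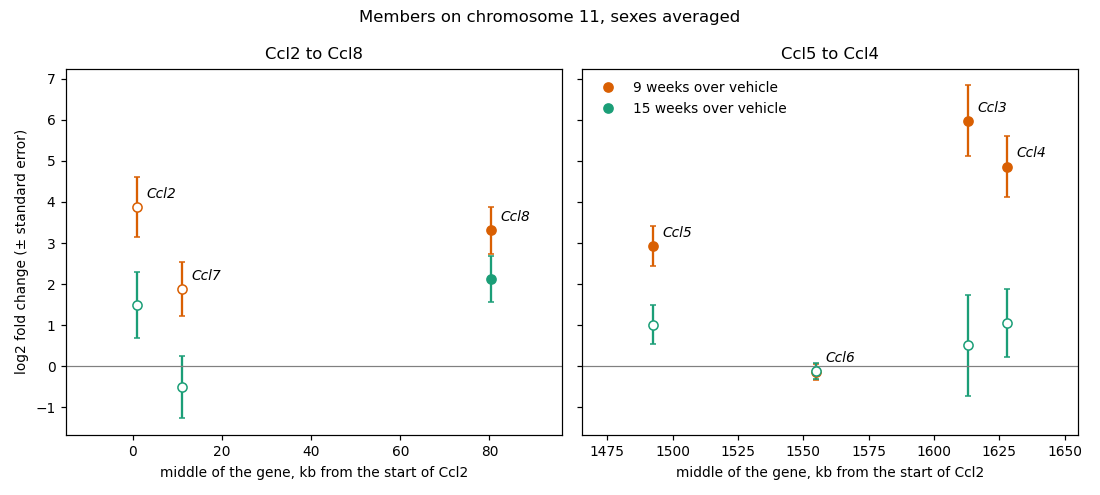
Log2 fold change over vehicle, sexes averaged, of the 7 ligands on chromosome 11 against the distance of the middle of each gene from the start of Ccl2. Bars are standard errors and filled points were called. Ccl6 sat at -0.13 between Ccl5 at 2.93 and Ccl3 at 5.97 at 9 weeks.

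Ccl20, the ligand of Ccr6 that epithelial cells secrete, was not called. Vehicle libraries ran from 1.52 to 9.48 CPM with a median of 4.47, libraries of 9 weeks from 3.06 to 19.6 CPM with a median of 9.12, and libraries of 15 weeks from 0.998 to 13.8 CPM with a median of 5.47. The groups overlapped in both sexes, and male replicates 1 and 3 of 9 weeks were the highest of all libraries. The log2 difference at 9 weeks was 1.06 ± 0.39 (edgeR adjusted p = 0.0626), and it was called by DESeq2 (1.07, adjusted p = 0.0281) and by edgeR without replicate 1 of both vehicle groups (1.21, adjusted p = 0.0332). It was also called in 5 of 30 edgeR fits that left out 1 library. At 15 weeks against vehicle it was 0.30 ± 0.39 (adjusted p = 0.615).

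Ccl20 was the only one of 6 members with a promoter window whose 300 bases held a kappaB motif, the kind of sequence that NF-kB binds, searched on both strands and held by 8.46% of 32851 such windows in the mouse. Windows for the other 4 members were not used here. The 250 bases before the RefSeq start sites (GRCm38.p6) are shown for Ccl20, chr1:83116516-83116765 on the plus strand, with the kappaB motif in capitals, and for Ccl8, chr11:82114935-82115184 on the plus strand, with TATAAA in capitals.
Ccl20: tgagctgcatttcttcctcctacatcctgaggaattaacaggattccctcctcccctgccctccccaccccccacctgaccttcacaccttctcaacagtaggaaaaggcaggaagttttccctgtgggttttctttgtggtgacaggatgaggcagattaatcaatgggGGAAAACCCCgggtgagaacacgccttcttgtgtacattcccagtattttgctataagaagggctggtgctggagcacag
Ccl8: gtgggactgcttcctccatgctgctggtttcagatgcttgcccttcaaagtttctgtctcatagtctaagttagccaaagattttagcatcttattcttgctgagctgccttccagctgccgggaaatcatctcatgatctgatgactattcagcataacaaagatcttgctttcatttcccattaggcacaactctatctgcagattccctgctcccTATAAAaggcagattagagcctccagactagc
The kappaB motif of Ccl20 began 80 bases before the start site. TATAAA, which 13.6% of windows held on either strand, began 32 bases before the start of Ccl8 and 16 before a start of Ccl25. The AP-1 motif TGANTCA, in 7.81% of windows, lay in the window of Ccl28 only, 21 bases after its start. A match describes the letters of these windows and is not evidence of binding.

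The abundant ligands Ccl6 and Ccl28 and the less abundant Ccl25 were not called in any comparison by edgeR with all 30 libraries. With TPM and limma each of them was called lower between 15 and 9 weeks. In that TPM fit the median log2 fold change of all 16261 tested genes was -0.60, and 8321 of them were called in either direction. Ccl6 ran from 68.8 to 650 CPM in vehicle libraries, from 170 to 425 CPM at 9 weeks and from 167.1 to 471 CPM at 15 weeks. The widest spread was thus among vehicle libraries, with male replicate 1, the library high in smooth muscle genes, at the bottom and female replicate 2 at the top. The log2 difference of Ccl6 was -0.13 ± 0.19 at 9 weeks (edgeR adjusted p = 0.723) and -0.11 ± 0.19 at 15 weeks (0.723).

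Ccl28, the mucosal ligand of Ccr10, ran from 121.04 to 213 CPM in vehicle libraries, from 138 to 236 CPM at 9 weeks and from 91.4 to 252 CPM at 15 weeks. All groups overlapped, and its log2 differences over vehicle were 0.16 ± 0.15 at 9 weeks (edgeR adjusted p = 0.524) and -0.09 ± 0.15 at 15 weeks (0.718). Ccl25, the ligand of Ccr9, ran from 4.62 to 13.3 CPM, from 4.76 to 9.14 CPM and from 4.82 to 10.1 CPM at the same times. It differed by -0.27 ± 0.14 at 9 weeks (edgeR adjusted p = 0.205) and by -0.15 ± 0.14 at 15 weeks (0.462). The small standard errors of these 3 genes, 0.14 to 0.19, bound the size of a change more closely than for the scarce ligands.

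The response at 9 weeks was then compared between the sexes. In females Ccl3, Ccl4, Ccl5 and Ccl8 were called higher, 4 of 10 members against 2.42% of tested genes, and in males Ccl3, Ccl4 and Ccl5, 3 of 10 against 4.42%. The log2 fold change of Ccl3 was 7.07 ± 1.33 in females (edgeR adjusted p = 0.00214) and 4.88 ± 1.11 in males (0.00601). Ccl4 rose by 5.32 ± 1.08 in females (edgeR adjusted p = 0.00413) and 4.40 ± 1.01 in males (0.0063).

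Ccl5 rose by 2.99 ± 0.70 in females (edgeR adjusted p = 0.0119) and 2.86 ± 0.70 in males (0.00923). Ccl8 rose by 4.52 ± 0.89 in females (edgeR adjusted p = 0.00318), and in males the difference was 2.11 ± 0.73 with an adjusted p of 0.062. DESeq2 called Ccl8 in males too, and with it the same 4 members in both sexes. Of all 16261 tested genes DESeq2 called 692 in females and 1456 in males, in either direction. For 5 of 10 members, Ccl2, Ccl3, Ccl4, Ccl5 and Ccl8, the female libraries of 9 weeks lay wholly above vehicle, against 2.71% of tested genes. In males this held for 1 member, Ccl8, against 5.55% of tested genes.

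Single libraries carried part of these calls. Without female replicate 4 of 9 weeks, 1 of the 4 female calls was left, Ccl8. Ccl5 then differed by 1.78 with an edgeR adjusted p of 0.131, while Ccl3 at 4.72 (adjusted p = 0.0194) and Ccl4 at 3.92 (0.0327) fell under the FPKM minimum. Without female replicate 5 of 9 weeks, 6 members were called. With only the female libraries of 9 weeks and vehicle in the fit, 1 of the 4 female calls was left as well, Ccl8: Ccl5 had an edgeR adjusted p of 0.0658, and Ccl3 and Ccl4 did not pass the low-count filter there. In males Ccl5 without replicate 2 of 9 weeks differed by 1.94 (edgeR adjusted p = 0.0625), and without male vehicle replicate 3 by 3.46, while Ccl3 without replicate 2 of 9 weeks differed by 3.78. Without female vehicle replicate 1 the female difference of Ccl8 was 7.25. The vehicle libraries left in that fit held 1, 0, 0 and 0 counts in females, so its size depends on the prior count.

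Other settings moved values within a sex and kept the calls. With TPM and limma Ccl3 differed by 3.56 in females and 3.28 in males, and Ccl4 by 3.30 and 3.38. The replicate block gave 6.36 for Ccl3 in females, and the smooth muscle covariate 3.62 for Ccl5 and 3.92 for Ccl8.

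No member differed between the sexes in its response by a direct test of the difference. At 9 weeks the male minus female difference was -2.41 ± 1.11 for Ccl8 (edgeR adjusted p = 0.648) and -3.20 ± 1.49 for Ccl2 (0.657), the members with the largest ratios of difference to error beside Ccl25, at 0.63 ± 0.28 (0.645). For Ccl5 it was -0.12 ± 0.95 (edgeR adjusted p = 0.986). By edgeR 3 members had an unadjusted p under 0.05 in this test, and at 15 weeks against vehicle and between 15 and 9 weeks none had. Of all tested genes 1205, 1245 and 363 had one in these tests. DESeq2 also called 0 members in the 3 tests. Of the 16261 genes DESeq2 called 1, 4 and 1 in them, and edgeR called 0.

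**Figure D4:**
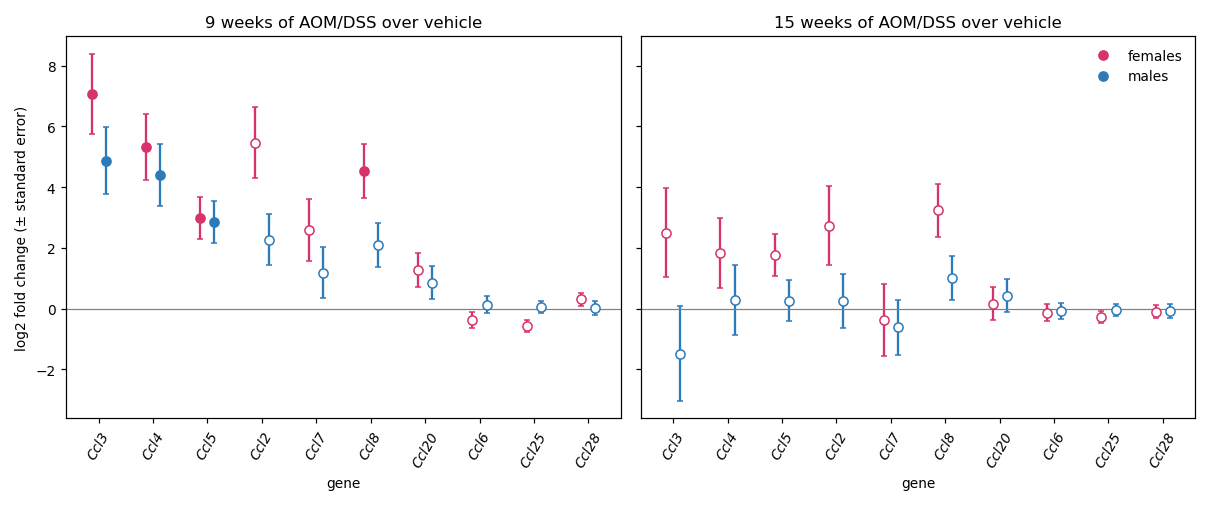
Log2 fold change over vehicle in females and males at 9 weeks (left) and 15 weeks (right), from edgeR. Bars are standard errors, filled points were called and open points were not. Female values lay above male values for Ccl2, Ccl3, Ccl4, Ccl5 and Ccl8 at both times, but no member passed the test of the difference between the sexes.

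At 15 weeks within each sex no member was called by edgeR, against 4.37% of tested genes called higher in males and 0.0861% in females. The unadjusted p was under 0.05 for 0 members in males and for 3 in females, Ccl2, Ccl5 and Ccl8. Of all 16261 tested genes this held for 5114 in males and 1776 in females. In females the log2 differences were 3.24 ± 0.88 for Ccl8 (edgeR adjusted p = 0.168), 1.77 ± 0.68 for Ccl5 (0.358) and 2.73 ± 1.31 for Ccl2 (0.451). DESeq2 called 1 member in females, Ccl8, and 0 in males, where Ccl8 differed by 1.02 ± 0.72 (edgeR adjusted p = 0.346). Of all tested genes DESeq2 called 89 in females and 1772 in males, in either direction.

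Between 15 and 9 weeks no member and no gene at all was called in either sex alone by edgeR (0% of tested genes), while 4 members in each sex had an unadjusted p under 0.05. These were Ccl2, Ccl3, Ccl4 and Ccl5 in males and Ccl2, Ccl3, Ccl4 and Ccl7 in females. Of all 16261 tested genes 2179 in males and 2046 in females had an unadjusted p under 0.05. DESeq2 called Ccl3, Ccl4 and Ccl5 lower in males and Ccl3 in females, where it called 102 and 33 of all tested genes in either direction. Ccl3 differed by -6.36 ± 1.31 in males (edgeR adjusted p = 0.109) and by -4.57 ± 1.06 in females (0.214).

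Males and females were also compared directly, and 0 members were called by edgeR in vehicle, at 9 weeks or at 15 weeks, against 0.178%, 0.0492% and 0.184% of tested genes. The unadjusted p was under 0.05 for 4 members in vehicle, 0 at 9 weeks and 2 at 15 weeks. Of all 16261 tested genes this held for 3035, 630 and 2009. In vehicle Ccl8 was at 0.000, 0.000 and 0.423 CPM (lowest, median and highest) in females and at 0.257, 0.760 and 1.497 CPM in males, and only female replicate 1 reached into the male range. The highest male value was that of replicate 1, the library high in smooth muscle genes. The log2 difference was 2.87 ± 0.88 (edgeR adjusted p = 0.0814), and DESeq2 called it, among 476 of all 16261 tested genes. Ccl2 in vehicle was at 0 to 0.0740 CPM in females and 0.0749 to 0.485 CPM in males, where the highest female and the lowest male library both held 2 counts, a difference of 3.29 ± 1.26 (edgeR adjusted p = 0.157).

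Ccl6 ran the other way in vehicle, from 235 to 650 CPM in females and from 68.8 to 380 CPM in males, with overlap. The 68.8 CPM was that of male replicate 1, the library high in smooth muscle genes, and the next male library was at 228 CPM. The male minus female log2 difference was -0.91 ± 0.28 (edgeR adjusted p = 0.0796), which DESeq2 called, and for Ccl25 it was -0.61 ± 0.20 (edgeR adjusted p = 0.0998). At 15 weeks both Ccl5 and Ccl6 were lower in every male library than in every female one, as were 1.55% of tested genes. Ccl6 ran from 292 to 471 CPM in females and from 167.1 to 238 CPM in males at that time, a difference of -0.86 ± 0.28 (edgeR adjusted p = 0.158), and Ccl5 differed by -1.86 ± 0.68 (0.227). At 9 weeks the largest difference between the sexes in the family, of Ccl3, was -0.63 ± 0.87 (edgeR adjusted p = 0.999).

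The receptors of these ligands were scarce in the scrape. Of 10 CC receptor genes 8 were tested, and 1 was called at 9 weeks with the sexes averaged, against 5.65% of tested genes called higher: Ccr1, the receptor of Ccl3, Ccl5 and Ccl6. It ran from 0.320 to 3.04 CPM in vehicle libraries and from 1.77 to 10.4 CPM at 9 weeks. Ccr1 rose by 1.64 ± 0.28 (log2; edgeR adjusted p = 0.000153) and from 9 to 15 weeks fell by 0.92 ± 0.27 (adjusted p = 0.0483).

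The other 7 tested receptors were not called. Their log2 differences at 9 weeks were all above 0, where the median of all tested genes was -0.02. Of these receptors 6 had an adjusted p under 0.05 but did not reach the FPKM minimum. The share of all tested genes at that looser condition is not given here. Of all 16261, 4720 had an unadjusted p under 0.05 by edgeR, in either direction. Ccr2, the receptor of Ccl2 and Ccl7, had medians of 0.715 CPM in vehicle, 4.02 CPM at 9 weeks and 0.768 CPM at 15 weeks, and differed by 2.03 ± 0.44 at 9 weeks (edgeR adjusted p = 0.00201). Ccr10, the receptor of Ccl28, differed by 2.38 ± 0.55 (edgeR adjusted p = 0.00332), and Ccr9, the receptor of Ccl25, by 0.85 ± 0.29 (0.0474), while their ligands were not called. Ccr6, the receptor of Ccl20, differed by 1.20 ± 0.62 (edgeR adjusted p = 0.203).

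Of 10 other CC ligand genes 6 were tested. Ccl9, a rodent ligand of Ccr1 like Ccl6, was called higher at 9 weeks (0.89 ± 0.21, edgeR adjusted p = 0.0031) and at 15 weeks (0.82 ± 0.21, adjusted p = 0.0099), with medians of 15.7, 27.9 and 23.8 CPM in vehicle, at 9 weeks and at 15 weeks. In vehicle it was called lower in males than in females (-1.32, edgeR adjusted p = 0.0493). Ccl22, a ligand of Ccr4, differed by 2.10 ± 0.39 at 9 weeks (edgeR adjusted p = 0.000349) under the FPKM minimum, and of the 4 atypical receptors, which take up chemokines without signalling through G proteins, 0 were called in the 3 comparisons.

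Of 6 cytokines known to induce chemokine genes, 3 were called higher at 9 weeks, Tnf, Il1a and Il1b, against 5.65% of tested genes. Il1b ran from 0 to 1.23 CPM in vehicle libraries and from 0.430 to 226 CPM at 9 weeks, with a log2 difference of 6.88 ± 0.91 (edgeR adjusted p = 5.25e-06). Tnf rose by 3.16 ± 0.36 at 9 weeks (edgeR adjusted p = 6.72e-07) and was still called higher at 15 weeks (1.67 ± 0.35, adjusted p = 0.00296). Its median was 12.8 CPM at 9 weeks and 5.06 CPM at 15 weeks. Of the 6 cytokines 2 were called higher at 15 weeks, against 3.54% of tested genes. From 9 to 15 weeks 3 of the 6 were called lower, against 2%. Their part in the changes of the ligands was not tested.

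Of 12 NF-kB pathway genes, 6 were called higher at 9 weeks, against 5.65% of tested genes, and 6 lower from 9 to 15 weeks, against 2%. The 4 with the smallest p at 9 weeks were Nfkbiz (0.82 ± 0.12, edgeR adjusted p = 1.9e-05), Icam1 (2.004 ± 0.30, 2.56e-05), Nfkbie (1.04 ± 0.16, 5.32e-05) and Rel (0.70 ± 0.14, 0.000574). At 15 weeks only Icam1 was called (0.96 ± 0.29, edgeR adjusted p = 0.026). The transcripts of Nfkb1 and Nfkb2, which encode subunits, differed by 0.06 ± 0.06 and 0.22 ± 0.11 at 9 weeks and were not called.

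Markers of several leukocyte types were called higher at 9 weeks, when 5.65% of tested genes were, and their part in the differences above was not tested. From 9 to 15 weeks 3 of 7 neutrophil genes, 2 of 11 macrophage and monocyte genes, 0 of 10 T and NK cell genes and 0 of 6 B cell genes were called lower, against 2% of tested genes. Of 7 tested neutrophil genes 4 were called higher at 9 weeks. Ly6g was at 27.7 to 122.03 CPM in the means of all 6 groups, vehicle included, so the list is summed without it. The other 7 genes together ran from 0 to 0.845 CPM in female vehicle libraries, from 0.674 to 4.55 CPM in male ones, from 0.591 to 121.7 CPM in females of 9 weeks and from 9.90 to 68.2 CPM in males of 9 weeks. At 15 weeks they ran from 0.999 to 10.0 CPM in females and from 0.896 to 40.7 CPM in males. Mmp8 was at 0 in 19 libraries, Cxcr2 in 11 and S100a8 in 8.

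The library highest in these genes, female replicate 4 of 9 weeks at 121.7 CPM, was also the highest of all in Ccl2, Ccl3, Ccl4, Ccl5 and Ccl7. Female replicate 5 of 9 weeks was the lowest of the 9-week libraries in them, at 0.591 CPM, and held 2 counts of Ccl3, 3 of Ccl2 and 0 of Ccl7. In the same library Ccl5, at 6.24 CPM, was not low.

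Of 11 tested macrophage and monocyte genes 4 were called higher at 9 weeks. Their 12 genes summed to 33.5 to 156 CPM in female vehicle, 72.9 to 236 CPM in male vehicle, 80.0 to 304 CPM in females of 9 weeks and 154.4 to 295 CPM in males of 9 weeks, with Cd163 at 0 in 16 libraries. Of 10 T and NK cell genes 6 were called higher at 9 weeks, and the list summed to 4.97 to 21.4 CPM in female vehicle, 4.68 to 12.5 CPM in male vehicle, 15.8 to 34.2 CPM in females of 9 weeks and 10.0 to 26.6 CPM in males of 9 weeks. At 15 weeks this sum was 14.8 to 35.1 CPM in females and 7.99 to 12.7 CPM in males, at the time when Ccl5 too lay higher in every female library than in every male one. Of the 6 plasma cell genes 3 were called higher at 9 weeks, of the 6 B cell genes 0 and of the 10 epithelial genes 1. Mesenchyme, smooth muscle and endothelium had 0 called higher of 8, 8 and 6 genes, and at 15 weeks 3, 7 and 1 of them were called lower than vehicle, against 4.25% of tested genes. The median log2 difference of the 8 smooth muscle genes at 15 weeks was -5.22 in males, whose vehicle group holds replicate 1 at 5809 CPM, and -0.47 in females.

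**Figure D5:**
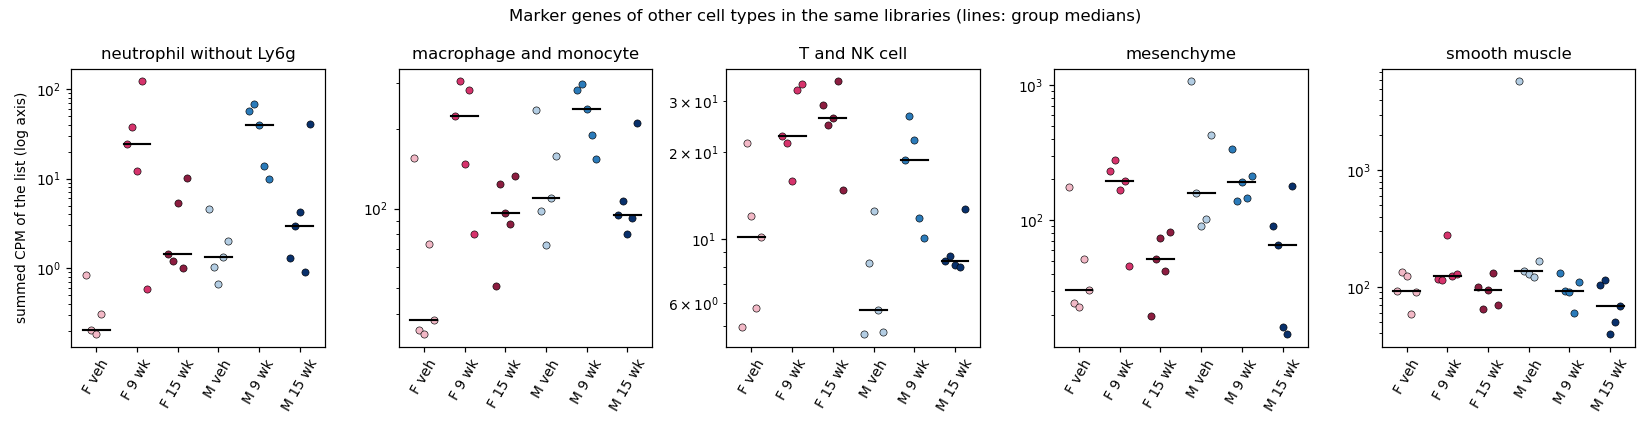
Summed CPM of marker genes in the 30 libraries on a log axis, for neutrophils without Ly6g, macrophages and monocytes, T and NK cells, mesenchyme and smooth muscle. Points are libraries and lines are group medians, with 1 female vehicle library at 0 not drawn in the first panel. The 9-week groups stood above vehicle in the first 3 panels by their medians, and male vehicle replicate 1 stood apart in smooth muscle at 5809 CPM.

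The genes whose pattern over the 30 libraries was most like each ligand were found by Spearman's rho of log2 CPM among 14381 named genes other than the members. These values are descriptions, since libraries of a group share treatment and sex. Ccl8 was closest to Clec4n (0.931) and Ifitm3 (0.901), and Ccl2 to Hp (0.899) and Il1r2 (0.898). Ccl5 was closest to Gzma (0.921), which encodes a granzyme of cytotoxic lymphocytes, and to Gbp8 (0.907), which was also first for Ccl4 (0.854, then Slfn1 at 0.838).

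Ccl3 had no gene as close, with P2ry10 at 0.788 and AI662270 at 0.778, and Ccl7 was closest to AI607873 (0.845) and Atp8b4 (0.840). Of the other 4 ligands, Ccl6 was closest to Hepacam2 (0.899) and Creb3l4 (0.893), Ccl28 to Nlrp10 (0.834) and Slc5a8 (0.830), Ccl25 to Slc29a4 (0.752) and Traf1 (0.737), and Ccl20 to H2-M2 (0.743) and Gimap8 (0.729). Between members the rho was highest for Ccl4 and Ccl5 (0.841), Ccl20 and Ccl28 (0.828), Ccl2 and Ccl7 (0.756) and Ccl2 and Ccl8 (0.739), and it was 0.617 for Ccl3 and Ccl4.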

How the data were processed

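The 30 libraries were poly(A)-selected and stranded, and paired reads were aligned by the authors to GRCm38 with STAR. The counts are the authors' featureCounts values per gene, deposited without normalization, and the strand setting is not given in the sources used here. The FPKM and TPM values were deposited by the authors as StringTie estimates, and were used for the expression minimum, for levels between genes and for 1 alternative. Lines of a gene listed more than once (11 to 20 per file) were added, and 6 of the counted genes were absent from 1 or more of these files. Per the labels' processing notes, bcl2fastq 2.20.0.422 and Trim Galore were also used. Duplicate reads, whose level the paper describes as high, were not removed here. The intervals of count ratios treat reads as independent and leave out the spread between mice, so they are too narrow for the full uncertainty. Scarce ligands with a few counts per library are less precise than Ccl6 or Ccl28.

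Groups were taken from the labels. Counts were tested with edgeR 4.0.16 in R 4.3.3 (filterByExpr, TMM factors 0.832 to 1.10, quasi-likelihood fit of all 30 libraries with 1 coefficient per group, common biological coefficient of variation 0.319) in 15 comparisons. A call needed an adjusted p under 0.05 over all tested genes, an absolute log2 fold change above 0.4 and, in 1 group of the comparison, a mean FPKM of 1 or more, as in the study's methods. The script was tested on simulated data. Intervals of count ratios are exact at 95%. Alternatives were DESeq2 1.42.0, its size factors in edgeR, no low-count filter, no FPKM minimum, a TPM minimum, only the compared libraries, a replicate block, a smooth muscle score as covariate, no vehicle replicate 1 libraries, StringTie TPM with limma 3.58.1 (pseudocount 0.1), and leaving out each library. Named were all members, the called genes (at most 4) of each pathway list, the members' receptors (1 is not reported here), and the 2 genes nearest to each member. Ccl22, Nfkb1, Nfkb2 and single markers were named after their values were seen. The members and lists were chosen with earlier results of these data known. Promoter windows (RefSeq) matched 6 of 10 members.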

Additional observations from a re-analysis of the deposited data

Results flagged for a closer look

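In 5 of 60 groups of 5 libraries checked over the 10 ligands, the highest or lowest library stood further from the others than Dixon's 95% critical value of 0.71 for the gap over the range, and chance flags about 1 in 20 groups. Of these, 2 were scarce ligands in female vehicle mice. Ccl2 stood at -2.69 log2 CPM in replicate 3, on 2 counts against 0 in the other 4 libraries. Ccl8 stood at -0.99 log2 CPM in replicate 1, on 12 counts against 0 or 1. The other 3 were in treated mice. Female replicate 5 of 9 weeks was low in Ccl8 (-0.36 log2 CPM, 13 counts) and high in Ccl6 (8.73 log2 CPM, against a group median of 8.28), and male replicate 5 of 15 weeks was low in Ccl6 (7.39 log2 CPM).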

How the results depend on the processing

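Of 150 counts of called members under the alternatives other than leaving out single libraries, 137 stayed within 1.5 times the reported count. At 15 weeks against vehicle 0 members were called with StringTie TPM and limma (reported 1). Between 15 and 9 weeks, sexes averaged, 5 were called without the FPKM minimum and 8 with TPM and limma (reported 3). TPM and limma called 8321 of all 16261 tested genes there, against 394 as reported. In that TPM fit the median log2 fold change of all tested genes was 0.29, -0.30 and -0.60 in the 3 comparisons with the sexes averaged, against values from -0.03 to -0.02 as reported. In females at 9 weeks 1 was called with only the compared libraries (reported 4), where Ccl3 and Ccl4 did not pass the low-count filter. The counts reported as 0 became 1 in females at 15 weeks without both vehicle replicate 1 libraries and with DESeq2, 3 between 15 and 9 weeks in males with DESeq2 and with TPM, 1 in females with DESeq2, 1 and 2 for the sexes in vehicle without those 2 libraries and with DESeq2, and 1 and 2 for the sexes at 15 weeks without those 2 libraries and with only the compared libraries. Of all tested genes DESeq2 called 89 in females at 15 weeks and 476 for the sexes in vehicle. Between 15 and 9 weeks DESeq2 called 102 genes in males and 33 in females, and TPM and limma called 1222 in males. Beyond the samples and thresholds each alternative changes by construction, the cause was not tested.

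Signs turned only for differences that were not called in the fit as reported. Relative to the reported signs, TPM gave 0.31 for Ccl6 and 0.091 for Ccl25 at 9 weeks, -0.041 for Ccl20 at 15 weeks, and -0.62 for Ccl6 and -0.51 for Ccl25 between 15 and 9 weeks. The smooth muscle covariate gave -0.29 for Ccl6 between 15 and 9 weeks, and leaving out both vehicle replicate 1 libraries gave 0.14 for Ccl7 at 15 weeks. When single libraries were left out in turn, log2 differences at 15 weeks ran from -0.016 to 0.73 for Ccl3, from -0.23 to 0.016 for Ccl6, from -0.76 to 0.011 for Ccl7 and from -0.15 to 0.0076 for Ccl28, and between 15 and 9 weeks from -0.041 to 0.084 for Ccl6.

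Without 1 library at a time, the count of called members ran from 4 to 6 at 9 weeks, sexes averaged, and from 2 to 4 between 15 and 9 weeks, and stayed at 1 at 15 weeks. It ran from 1 (without female replicate 4 of 9 weeks) to 6 (without female replicate 5) in females at 9 weeks, from 0 to 1 for females of 15 weeks (1 when female vehicle replicate 1 was left out), from 0 to 1 between 15 and 9 weeks in males (1 without female or male replicate 4 of 9 weeks), from 0 to 2 in females (2 without female replicate 5 of 9 weeks), and from 0 to 3 between the sexes in vehicle (3 without female vehicle replicate 1, 1 without male vehicle replicate 4).

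The labels number the replicates 1 to 5 in every group, but the numbers did not pair the libraries. Deviations from the group means of same-numbered libraries correlated from -0.58 to 0.47 over 75 pairs, 12 of them above 0.1, and 4 of 30 libraries were closest to their own number. With the number as a replicate block the counts were 4, 1 and 3 in the comparisons with the sexes averaged, and no count of called members changed. Depth limits Ccl2, Ccl3, Ccl4, Ccl7 and Ccl8 most, since many vehicle libraries held 0 to 5 of their reads.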
